A study of Mus musculus with 11 samples.

Results

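In mouse embryonic stem (ES) cells 6 genes were followed, the secreted guidance cue netrin-1 (Ntn1), its receptors Neo1, Unc5b and Dcc, the prohormone gene Trh and the actin nucleator Cobl. They were chosen by symbol. Ntn1, Trh and Cobl were selected on their single-cell levels, which were higher in cells labelled as strongly overexpressing plakoglobin, the junction catenin encoded by Jup, than in cells labelled as weakly overexpressing it. They are 6 of 26669 genes with a transcript in the single-cell libraries. The difference between these 2 libraries therefore chose members and is given only as a description.

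The study compared ES cells in soft agarose microgels with ES cells on tissue-culture plastic, and asked whether plakoglobin affects pluripotency. Bulk RNA sequencing with Smart-seq2, on roughly 1000 cells a library, covered the line Rex1GFPd2 in 2i/LIF, a medium with 2 kinase inhibitors and the cytokine LIF, with 3 libraries from gels and 3 from plastic. Single-cell sequencing with inDrop, which counts transcripts by unique molecular identifiers (UMIs), covered 5 libraries, each the only one of its condition. Wild-type cells of the line E14 were grown on plastic in serum/LIF (called serum plastic here), on plastic in 2i/LIF (2i plastic) and within gels in serum/LIF (serum gel). The other 2 lines carried Jup under the CAG promoter, with the genotypes PGLOW and PGHIGH, and grew on plastic in serum/LIF (called JupLow-labelled and JupHigh-labelled cells). LIF was common to all groups. The labels name neither the parent line of the overexpressing cells nor whether each is 1 clone. Nor do they say whether the bulk replicates came from separate cultures, so p-values measure only the spread between these samples, which may be technical.

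Netrin-1 is best known for steering growing axons. Binding to DCC or neogenin, the product of Neo1, attracts or promotes outgrowth, UNC5 receptors turn the response to repulsion, and DCC and UNC5 receptors can signal cell death when they are not bound. Trh encodes the precursor of thyrotropin-releasing hormone, the hypothalamic peptide that drives thyrotropin release, and Cobl (cordon-bleu) nucleates actin filaments through its WH2 domains.

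Sequence upstream of the members is shown for Trh and Cobl, which rose together in the bulk comparison below. RefSeq windows of 300 bases, from 250 before to 50 after an annotated start, were found for 4 of the 6 members (Neo1, Unc5b, Trh and Cobl). Trh has 1 window, at chr6:92244601-92244900 on the minus strand of GRCm38.p6. Cobl has 2, at chr11:12464911-12465210 for the upstream start and chr11:12412091-12412390 for an internal start, both on the minus strand. Capitals mark a match to any of the motifs searched.
Trh: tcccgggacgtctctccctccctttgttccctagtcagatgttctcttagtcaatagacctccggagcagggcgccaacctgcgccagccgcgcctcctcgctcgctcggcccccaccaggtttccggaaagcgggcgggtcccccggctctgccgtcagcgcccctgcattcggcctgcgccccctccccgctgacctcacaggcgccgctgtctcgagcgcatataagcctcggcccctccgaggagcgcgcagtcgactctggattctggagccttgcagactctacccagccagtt
Cobl upstream start: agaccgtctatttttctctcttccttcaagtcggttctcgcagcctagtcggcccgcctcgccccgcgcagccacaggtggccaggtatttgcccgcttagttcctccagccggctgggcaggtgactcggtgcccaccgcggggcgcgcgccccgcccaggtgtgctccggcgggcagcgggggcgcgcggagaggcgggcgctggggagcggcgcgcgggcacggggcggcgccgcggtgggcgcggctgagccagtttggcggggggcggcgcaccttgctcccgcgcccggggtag
Cobl internal start: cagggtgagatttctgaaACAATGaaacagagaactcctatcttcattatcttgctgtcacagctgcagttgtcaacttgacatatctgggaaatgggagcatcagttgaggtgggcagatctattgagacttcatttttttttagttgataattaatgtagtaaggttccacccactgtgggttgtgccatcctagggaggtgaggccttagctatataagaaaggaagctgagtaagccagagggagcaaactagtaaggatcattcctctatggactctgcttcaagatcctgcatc
The motifs, searched on both strands, were AAGGTCA (ESRRB), GGGCGTG and GGGTGTG (KLF), TTCNNNGAA (STAT3), CTTTGAT (TCF/LEF), TTTGCAT (OCT4), CATTGT (SOX2) and CACGTG (E-box); the OCT4 and SOX2 letters can share bases. None of them lies in the windows of Trh, Neo1 or the upstream start of Cobl. The internal Cobl window holds CATTGT once, on the reverse strand, and the Unc5b window holds it once. This motif is found in 12.6% of the 32851 promoter windows of the table, and the others in 3.73% (TCF/LEF) to 8.44% (GGGCGTG). By base composition, the Trh window is 67.0% G and C with 28 CpG dinucleotides, the upstream Cobl window 75.3% with 42, and the internal Cobl window 43.0% with 0, against a median of 52.7% over all windows.

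All 6 genes are protein coding and lie on minus strands in GRCm38 (GENCODE M21). Ntn1 spans chr11:68209364-68400823, Neo1 chr9:58874687-59036441, Unc5b chr10:60762593-60831581, Trh chr6:92242061-92244650 and Cobl chr11:12236608-12464960. Trh is the smallest, with 3 exons, and no annotated gene overlaps it. Ntn1 spans Gm12305 on its own strand and Mir6406 on the other, Neo1 spans the antisense gene Gm47271, Unc5b spans Gm19972 on its own strand, and Cobl spans the antisense gene Gm12002. No exonic base is shared in any of these pairs, and the overlapping genes had 0 to 2 UMIs in a library.

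In the single-cell libraries 112 to 2889 cells had 1000 UMIs or more, with 236195 to 8284254 UMIs in all and a median of 1731.5 to 2465.0 per cell. Levels are counts scaled to a common library total of 1000000 UMIs (CPM), with exact Poisson intervals at 95%, and shares of cells carry exact binomial intervals; both cover counting error only. No full cell barcode was shared between libraries, and 0 to 53 cells of a pair shared the outer 16 bases. Jup itself stood at 36.7 CPM in serum plastic, 46.7 in 2i plastic, 38.1 in serum gel, 37.9 in JupLow-labelled cells and 47.8 in JupHigh-labelled cells. The labels are not clearly borne out by these values; inDrop reads transcripts near the 3′ end, and whether the transgene carries that end is not stated. All 10 naive ES cell markers had UMIs in 4 libraries and 8 of 10 in serum gel (Tbx3 and Prdm14 were at 0). Of the 5 general ES cell markers, Sox2 was at 0 in serum plastic, and the others had UMIs in all libraries. The serum plastic table stood apart in genes that overlap others. Against it, 2.89% of genes without an annotated overlap were 2-fold or more lower in JupLow-labelled cells, but 11.1% of genes whose span overlaps another without shared exonic bases, the class of Ntn1, Neo1, Unc5b and Cobl, and 73 of these 1583 genes had no UMI in that table. The shares 2-fold or more higher than serum plastic also differed, at 1.06% and 5.24% in JupLow-labelled cells and 4.18% and 6.78% in JupHigh-labelled cells. In 2i plastic they were 8.20% and 10.05%, and in serum gel 4.65% and 8.69%. Between JupHigh- and JupLow-labelled cells the lower shares were 8.61% and 10.1% and the higher shares 3.20% and 2.57%, with 0 genes at 0 in JupLow-labelled cells. Trh has no overlap, and the part of this difference between tables in the other members' ratios was not tested.

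Ntn1, the ligand, had 21 UMIs and 10.4 CPM (6.44 to 15.9) in serum plastic. It had 436 UMIs or 52.6 CPM (47.8 to 57.8) in 2i plastic. In serum gel it had 9 UMIs and 38.1 CPM (17.4 to 72.3), in JupLow-labelled cells 45 UMIs and 15.6 CPM (11.4 to 20.9), and in JupHigh-labelled cells 663 UMIs and 153.8 CPM (142.3 to 166.0). JupHigh-labelled cells thus lay above the wild-type libraries, while their difference from JupLow-labelled cells chose this gene. The JupHigh-labelled value entered that choice, so its contrasts with the wild type are a description as well. The level in 2i plastic lay above serum plastic and JupLow-labelled cells. Intervals overlapped for 2i plastic and serum gel, for serum gel and JupLow-labelled cells, and for JupLow-labelled cells and serum plastic. Against 2i plastic, the wild type in the naive medium, JupHigh-labelled cells held 2.92-fold more Ntn1 (2.59 to 3.31) although they grew in serum/LIF. The serum gel value rests on 5 of 112 cells, 1 of which held 4 of the 9 UMIs.

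Neo1, which encodes neogenin, varied least among the members that were well counted. It stood at 24.8 CPM (18.4 to 32.7) in serum plastic, 44.4 (39.998 to 49.2) in 2i plastic, 16.9 (4.61 to 43.4) in serum gel, 32.0 (25.8 to 39.2) in JupLow-labelled cells and 23.7 (19.3 to 28.7) in JupHigh-labelled cells. Only the 2i plastic library stood above the other plastic libraries, by 1.79-fold (1.33 to 2.46) over serum plastic, and JupHigh-labelled cells were at 0.533-fold of it (0.423 to 0.665).

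Unc5b, the receptor of repulsion, was lowest where its ligand was highest. It stood at 32.7 CPM (25.3 to 41.6) in serum plastic, 33.2 (29.4 to 37.4) in 2i plastic, 33.9 (14.6 to 66.7) in serum gel and 41.7 (34.6 to 49.9) in JupLow-labelled cells, 4 intervals that overlap. In JupHigh-labelled cells it was at 10.2 CPM (7.42 to 13.7), below all of them. That is 0.307-fold of 2i plastic (0.218 to 0.424) and 0.312-fold of serum plastic (0.208 to 0.464). With only cells of 2000 UMIs or more, the same ratios were 0.200 and 0.198.

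Dcc, the receptor of attraction, was close to the detection limit throughout. It had 6, 4, 0, 2 and 4 UMIs in serum plastic, in 2i plastic, in serum gel and in JupLow- and JupHigh-labelled cells, which is at most 2.97 CPM. For the count of 0 in serum gel a floor of 12.7 CPM (3 UMIs) was set, and its exact interval reaches 15.6 CPM. In 2i plastic 3 of the 4 UMIs lay in 1 cell, and in JupHigh-labelled cells 3 of the 4 lay among the 54 cells with a UMI of Zscan4c, Zscan4d or Zscan4f, markers of a 2-cell-like state, out of 2153 cells.

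Trh differed more between the 2 media than any other member. It had 24 UMIs and 11.9 CPM (7.62 to 17.7) in serum plastic, 2120 UMIs and 255.9 CPM (245.1 to 267.0) in 2i plastic, and 28 UMIs and 118.5 CPM (78.8 to 171.3) in serum gel. JupLow- and JupHigh-labelled cells had 69 UMIs and 24.0 CPM (18.7 to 30.3), and 668 UMIs and 155.0 CPM (143.4 to 167.2). Here 2i plastic was highest, JupHigh-labelled cells and serum gel could not be separated, and JupLow-labelled cells lay above serum plastic. Trh was 21.5-fold higher in 2i plastic than in serum plastic (14.4 to 33.7) and 9.97-fold higher in serum gel than in serum plastic (5.57 to 18.0), and both ratios use the same serum plastic library. In JupHigh-labelled cells it was at 0.606-fold of 2i plastic (0.554 to 0.661), the reverse of Ntn1.

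Cobl split the libraries into a high and a low set, though its JupHigh-labelled and JupLow-labelled values chose this gene. It stood at 130.4 CPM (119.8 to 141.6) in JupHigh-labelled cells and 92.1 (85.7 to 98.9) in 2i plastic, a ratio of 1.42 (1.27 to 1.58). The other 3 overlapped, at 22.9 CPM (17.7 to 29.2) in JupLow-labelled cells, 21.8 (15.8 to 29.3) in serum plastic and 21.2 (6.87 to 49.4) in serum gel. Unlike Trh, Cobl in serum gel was close to serum plastic (0.971-fold, 0.300 to 2.44), on 5 UMIs, and this interval leaves a 2-fold difference either way undetectable at this depth.

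**Figure D1:**
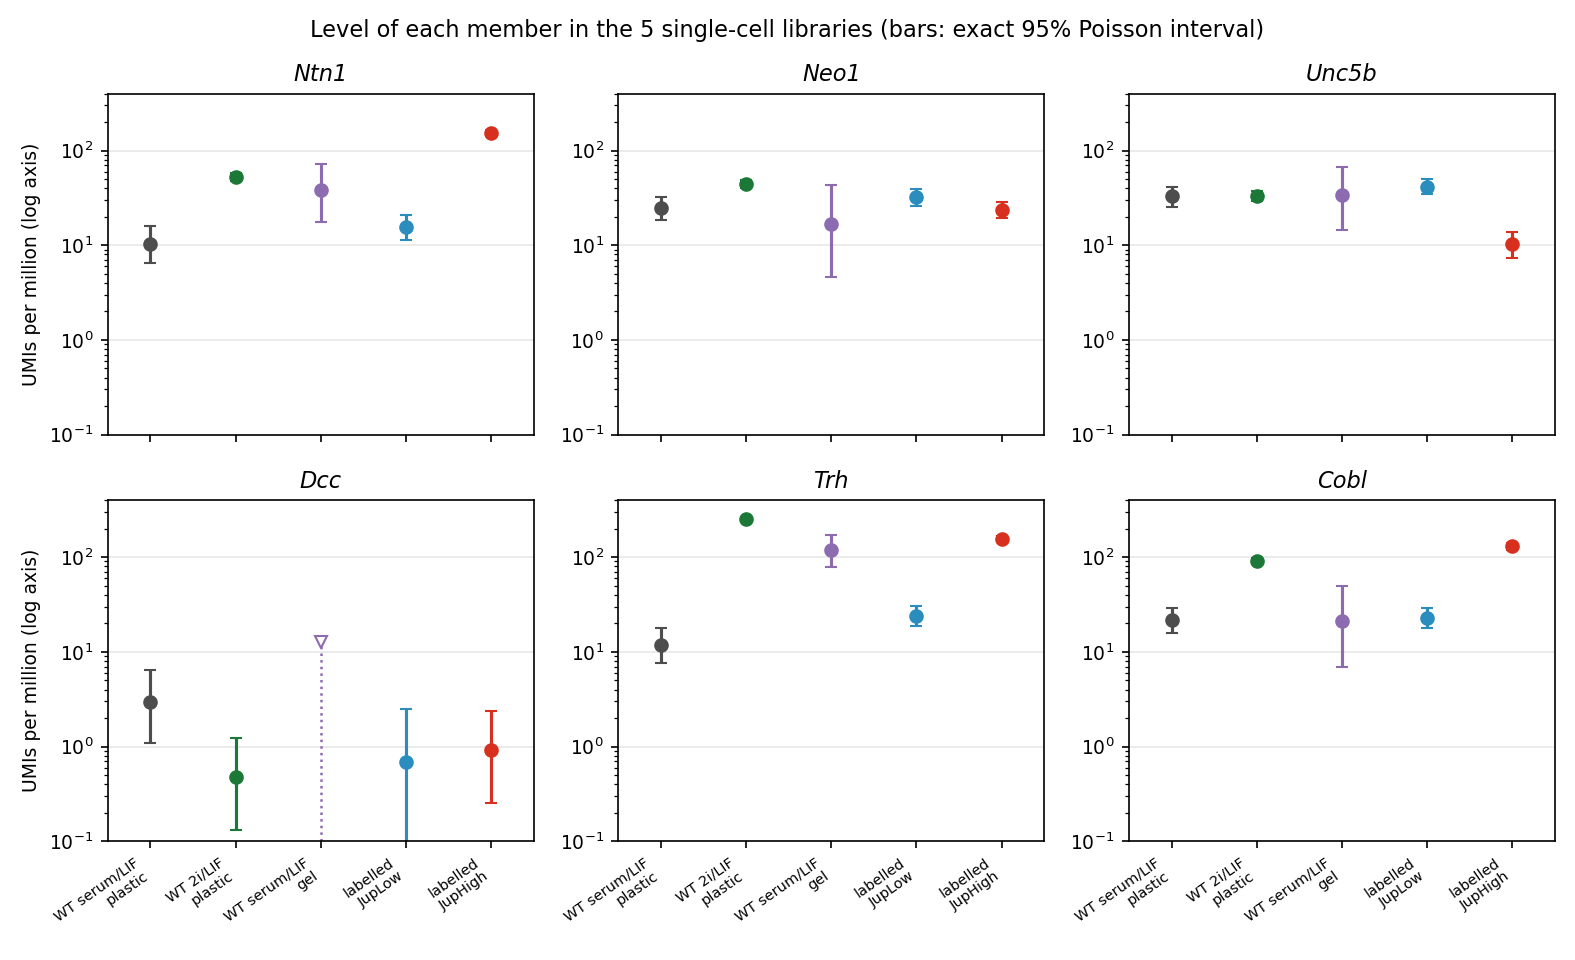
Level in CPM (log axis) of the 6 genes in the 5 single-cell libraries. Points are levels and bars exact 95% Poisson intervals. The open triangle for Dcc in serum gel, at a count of 0, marks a floor of 12.7 CPM (3 UMIs), not its exact limit of 15.6 CPM. Ntn1, Trh and Cobl are high in 2i plastic and in JupHigh-labelled cells, and Unc5b is low in JupHigh-labelled cells.

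Between JupHigh- and JupLow-labelled cells, the contrast that chose members, the ratio was 9.84-fold for Ntn1, 6.46-fold for Trh, 5.69-fold for Cobl, 0.740-fold for Neo1 and 0.245-fold for Unc5b. Of the 5 members at 20 CPM or more in either library, 3 were 2-fold or more higher and 1 was lower, where 2.63% and 8.44% of all such genes were. The direction for Neo1 depends on the barcodes kept, as with every barcode its ratio was 1.12. The ratio for Dcc, 1.34, rests on 4 and 2 UMIs.

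The other contrasts share libraries with that one or with each other, and the members' own values stand side by side. A gene enters a count by its higher library, so the counts are a description. Ntn1 and Trh were under 20 CPM in serum plastic, and Unc5b was in JupHigh-labelled cells. Against serum plastic, 3 of 5 members were 2-fold or more higher in JupHigh-labelled cells (7.94% of all genes at 20 CPM or more), with Ntn1 14.8-fold (9.59 to 24.0), Trh 13.03-fold (8.68 to 20.5) and Cobl 5.98-fold (4.396 to 8.32). Unc5b was the 1 that was lower (15.0% of genes). In 2i plastic 3 of 5 were (11.6% of genes), with Ntn1 at 5.06-fold (3.27 to 8.25) and Cobl at 4.22-fold (3.12 to 5.86) beside Trh, and 0 of 5 were lower (15.3%). In serum gel 2 of 5 were (9.06% of genes), Trh and Ntn1 (3.66-fold, 1.48 to 8.34, and 2.29-fold with cells of 500 UMIs or more), and 0 were lower (14.2%). In JupLow-labelled cells 1 of the 4 members at 20 CPM or more was (6.02% of genes), Trh at 2.02-fold (1.25 to 3.35), and 0 were lower (7.67%), while Ntn1, under that limit here (1.502-fold, 0.877 to 2.66), and Cobl (1.05-fold, 0.707 to 1.58) had intervals that include 1. Against 2i plastic, the 1 member 2-fold or more higher in JupHigh-labelled cells was Ntn1 (3.64% of genes), and Unc5b was the 1 that was lower (6.48%).

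Summed markers of the cell state also differed between the libraries. The summed level of the 10 naive markers was 527 CPM in serum plastic, 2554 in 2i plastic, 732 in serum gel, 766 in JupLow-labelled cells and 2671 in JupHigh-labelled cells. This sum was high in 2i plastic and JupHigh-labelled cells, as were Ntn1, Trh and Cobl. It was no higher in serum gel than in JupLow-labelled cells, and Trh stood at 118.5 against 24.0 CPM in these libraries. Ntn1 stood at 38.1 CPM, on 9 UMIs, against 15.6, with overlapping intervals. The 6 formative or primed markers stood at 821, 187, 919, 975 and 438 CPM, with Fgf5 at 0 in 2i plastic and in JupHigh-labelled cells. The 5 trophoblast markers stood at 782, 20.4, 216, 848 and 20.6, with Elf5 at 0 in all and Cdx2 also at 0 in serum gel. That list includes the keratins Krt8 and Krt18, and its sum does not show a cell type. The 14 primitive endoderm markers stood at 2328, 264, 567, 629 and 317 CPM, with Gata6 at 0 in 2i plastic and Amn at 0 in JupHigh-labelled cells. The 5 markers of a 2-cell-like state summed to 71.4 CPM in JupHigh-labelled cells and 0.362 to 22.8 in the other libraries, and mitochondrial transcripts took 14.8% of UMIs there and 9.82% to 11.4% elsewhere. Sums of the 5 general ES cell markers varied less than the naive sum, from 1029 CPM in serum plastic to 1481 in JupHigh-labelled cells. So did those of the 8 neural markers, from 251.2 CPM in serum plastic to 411.1 in 2i plastic. The part of these marker differences in the members' differences was not tested.

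Barcodes under 500 UMIs were set beside the cells. The JupHigh-labelled library had 1343 of them with 579160 UMIs in all, and the JupLow-labelled library 4405 with 1840094. Many thus lay near that limit, and whether they held free RNA or shallow cells was not tested. In the JupHigh-labelled library they held Ntn1 at 88.1 CPM (65.6 to 115.8) against 153.8 in cells, Trh at 126.0 (98.8 to 158.5) against 155.0, and Cobl at 115.7 (89.7 to 146.9) against 130.4. In serum gel they held Trh at 142.4 CPM (93.1 to 208.7) against 118.5 in cells. In serum plastic and in the JupLow-labelled library such barcodes held Ntn1, Trh and Cobl at 6.52 to 20.7 CPM. For Trh and Cobl the intervals of small barcodes and of cells overlapped in all 4 of these libraries. Small barcodes held less than cells, with intervals apart, for Ntn1 in the JupHigh-labelled and JupLow-labelled libraries, and in the latter also for Neo1 (12.5 against 32.0 CPM) and Unc5b (21.2 against 41.7). For Ntn1 in the JupLow-labelled library the intervals were barely apart, on 12 UMIs in small barcodes. They ended at 11.39 CPM in small barcodes and began at 11.40 in cells. In 2i plastic small barcodes were not measured, as 1 barcode lay under 500 UMIs. No cell type that should lack the genes was at hand as a background for shares of cells.

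After each cell was thinned to 1000 UMIs, Ntn1 was found in 13.2% of JupHigh-labelled cells (11.8% to 14.7%), 4.08% in 2i plastic (3.39% to 4.87%), 3.57% in serum gel (0.982% to 8.89%), 1.5% of JupLow-labelled cells (0.891% to 2.36%) and 0.690% of serum plastic (0.224% to 1.602%). Without thinning the shares were 24.1%, 12.7%, 4.46%, 3.33% and 2.62%. Trh was found in 21.3% of cells in 2i plastic (19.8% to 22.9%) and 12.4% of JupHigh-labelled cells (11.1% to 13.9%) after thinning, and in 42.8% and 21.7% without. At least 1 of Ntn1, Trh and Cobl was found in 32.5% of thinned JupHigh-labelled cells (30.5% to 34.5%), 30.8% in 2i plastic (29.1% to 32.5%), 9.82% in serum gel (5.01% to 16.9%), 5.50% of JupLow-labelled cells (4.28% to 6.94%) and 3.59% of serum plastic (2.36% to 5.21%).

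In the libraries with most UMIs of these genes, Trh was the most uneven of the 3 among cells. Its variance over cells was 1.23 times its mean in the thinned JupHigh-labelled cells and 1.10 times in 2i plastic, where a Poisson count gives 1. For Ntn1 and Cobl the ratio was 1.04 and 1.02 in JupHigh-labelled cells and 0.992 and 0.998 in 2i plastic. The order differed in JupLow-labelled cells (Ntn1 1.09, Trh 1.06, Cobl 1.05) and serum plastic (0.994, 0.983 and 1.21), on 5 to 27 cells with a UMI of each gene. Without thinning, single cells held up to 8 Trh UMIs among JupHigh-labelled cells and 9 in 2i plastic. In thinned JupHigh-labelled cells, Cobl was found in 18.0% (13.7% to 22.9%) of the 284 cells with Ntn1 and 11.6% (10.2% to 13.2%) of the 1869 without, intervals that do not overlap. In 2i plastic the same shares were 8.47% (4.14% to 15.0%) and 8.84% (7.81% to 9.96%), which overlap. Trh was found in 14.8% (10.9% to 19.5%) of JupHigh-labelled cells with Ntn1 and 12.1% (10.6% to 13.7%) of those without, and in 29.7% (21.6% to 38.8%) and 20.97% (19.5% to 22.5%) in 2i plastic, each pair with overlapping intervals. All 3 were found together in 8 of 2153 JupHigh-labelled cells and in 4 of 2889 in 2i plastic.

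Within libraries the members were also set against markers of the cells. Among JupLow-labelled cells, the 400 with the highest share of naive-marker UMIs held Ntn1 at 35.6 CPM (24.5 to 50.1), Trh at 42.1 (30.0 to 57.6) and Cobl at 39.96 (28.1 to 55.1). The 400 with the lowest held them at 2.36 (0.286 to 8.53), 12.99 (6.49 to 23.2) and 16.5 (9.04 to 27.7). Unc5b ran the other way, at 14.0 CPM (7.48 to 24.0) in the former and 55.5 (40.8 to 73.8) in the latter, and Neo1 stood at 28.1 (18.3 to 41.1) and 28.3 (18.2 to 42.2). The lowest 400 were taken in file order from 558 cells with no naive-marker UMI, and the median depths were 2286.5 and 1876.0 UMIs. The intervals of the 400 highest and the 400 lowest cells did not overlap for Ntn1, Trh, Cobl and Unc5b, and overlapped for Neo1.

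In JupHigh-labelled cells, the 211 with 3 or more UMIs of Nanog, a naive factor, held Trh at 232.8 CPM (193.6 to 277.5) against 108.7 (94.4 to 124.5) in the 1046 without one. Ntn1 stood at 185.8 (151.0 to 226.2) and 136.4 (120.3 to 153.9) and Cobl at 159.5 (127.4 to 197.3) and 124.9 (109.5 to 141.7) in these cells, with overlapping intervals. The median depths were 2460.0 and 1745.5 UMIs. In serum plastic, the 107 cells with 5 or more UMIs of primitive endoderm markers held Unc5b at 79.7 CPM (54.5 to 112.5) and the other 618 at 21.04 (14.6 to 29.4), at median depths of 3336.0 and 2234.5. In the same cells Neo1 stood at 24.9 and 24.7 CPM, Cobl at 22.4 and 21.7, Ntn1 at 4.98 (2 UMIs) and 11.8, and Trh at 7.47 (3 UMIs) and 12.99, each pair with overlapping intervals. These ranges are limits on a count, with 40 cells at 4 or 5 endoderm UMIs, and not cell types.

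**Figure D2:**
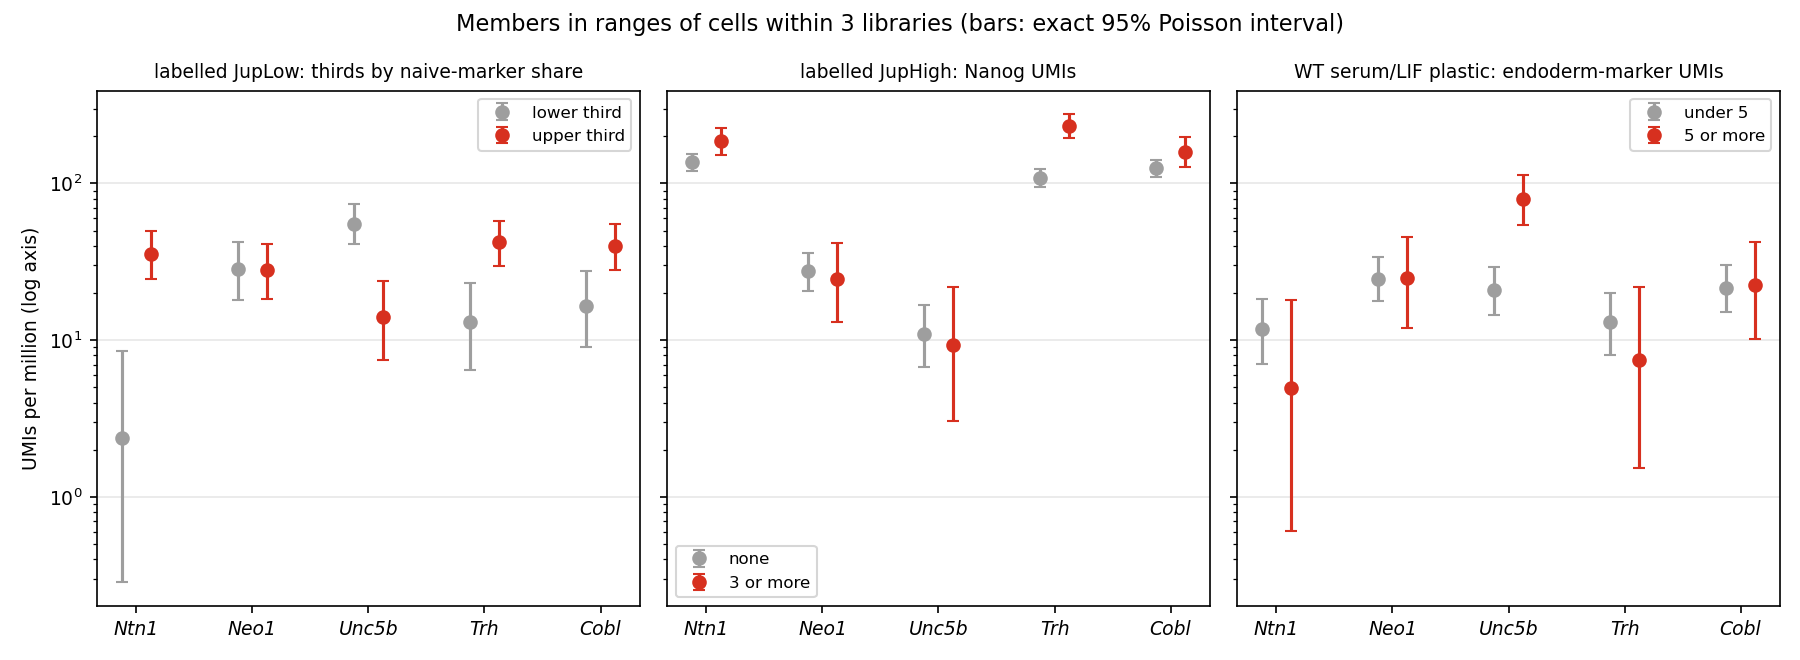
Level in CPM (log axis) of 5 members in ranges of cells within 3 libraries; bars are exact 95% Poisson intervals and red marks the range with more marker UMIs. In JupLow-labelled cells, Ntn1, Trh and Cobl are higher and Unc5b is lower in the 400 cells with the highest naive share; in serum plastic Unc5b is higher in the 107 endoderm-marked cells.

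The bulk libraries, made in 2i/LIF from another line, were not part of the contrast that chose Ntn1, Trh and Cobl. The members were, however, chosen with earlier results of these data known. Values are the deposited normalised counts, tested with limma on log2(value + 0.5) and adjusted by Benjamini-Hochberg over 7878 tested genes. Trh had 211.0, 235.7 and 224.0 in gel, a mean of 223.6 ± 12.4 (SD, n = 3), and 68.2, 71.2 and 53.1 on plastic, a mean of 64.2 ± 9.68 (SD, n = 3), on 35 to 192 reads a library. Every gel library lay far above every plastic library. By limma, Trh rose in gel by 1.80 on the log2 scale, with an SE of 0.14 and an adjusted p of 1.23e-07. Cobl had 92.5, 87.2 and 87.9 in gel, a mean of 89.2 ± 2.90, and 41.1, 38.0 and 47.1 on plastic, a mean of 42.1 ± 4.62 (SD, n = 3). Its groups were also apart, and it rose by 1.08 (SE 0.16, adjusted p 6.27e-05 by limma). Fewer cells of a type and less RNA per cell cannot be told apart in bulk.

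Neo1 had 15.8, 13.5 and 27.5 in gel and 16.2, 9.39 and 21.3 on plastic, groups that overlap, and limma put its log2 fold change at 0.28, with an SE of 0.34 and an adjusted p of 0.559. So 2 of the 3 tested members, Trh and Cobl, were called higher, where 36.9% of all tested genes were called, 18.3% higher and 18.6% lower. Their fold changes lie at percentiles 99.1 and 95.3 of all tested genes, and that of Neo1 at 69.6.

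Ntn1 and Unc5b were too low for the filter and were not tested with the others. Ntn1 had 11.3, 14.7 and 10.99 in gel and 4.57, 7.04 and 4.55 on plastic, on 8 to 12 and 3 to 18 reads. Unc5b had 14.7, 3.68 and 10.99 in gel and 2.49, 2.74 and 1.52 on plastic, on 3 to 13 and 1 to 7 reads. For both, all gel values lay above all plastic values, which held for 24.4% of tested genes. That share covers genes that passed the filter, not genes this low. Without the filter, where 12.2% of 12583 genes were higher, limma gave Ntn1 a log2 fold change of 1.14 with an SE of 0.40 (adjusted p 0.0451) and Unc5b 1.74 (SE 0.57, adjusted p 0.0324). No alternative setting was reported for these 2 genes. Dcc is not among the 12588 genes listed in bulk and so has no bulk value.

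**Figure D3:**
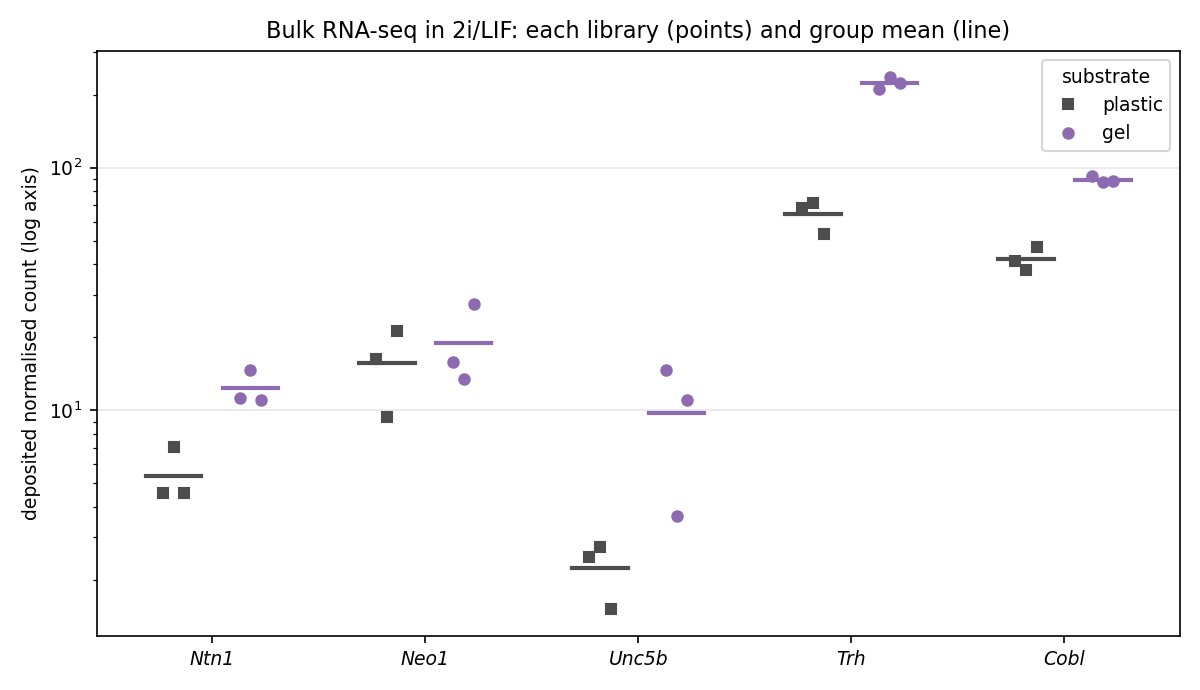
Deposited normalised count (log axis) of 5 members in the 6 bulk libraries; points are libraries and lines group means. Trh, Cobl, Ntn1 and Unc5b are higher in all 3 gel libraries than in any plastic library, and Neo1 overlaps.

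**Figure D4:**
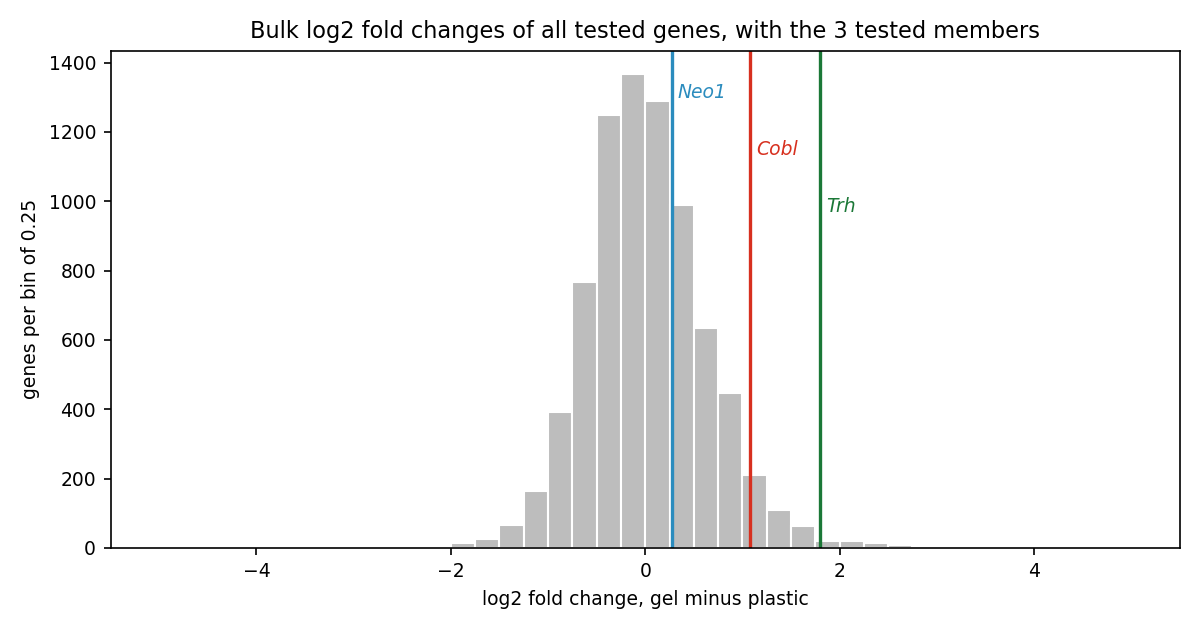
Number of tested genes in bins of 0.25 of the bulk log2 fold change of gel over plastic, with lines at Neo1 (0.28), Cobl (1.08) and Trh (1.80). Cobl and Trh lie in the right tail and Neo1 near the middle.

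The summed naive markers did not separate the bulk groups, at 2581 to 2710 in gel and 2582 to 2807 on plastic (10 of 10 listed). This sum hides opposite changes, as Klf4 and Esrrb of this list rose in gel while Nanog and Zfp42 fell (values below). Of the other lists, the primitive endoderm, fibroblast, trophoblast and 2-cell-like sums overlapped between the groups, and the rest were apart. Among single tested genes, 49.5% had groups that did not overlap. The general ES cell markers (5 of 5 listed) summed to 490 to 618 in gel and 633 to 697 on plastic, and the formative or primed markers (3 of 6 listed) to 60.9 to 72.4 and 47.4 to 57.7. The neural markers (3 of 8 listed) summed to 289 to 325 in gel and 188 to 208 on plastic; the part of these differences in those of Trh and Cobl was not tested. In the serum/LIF single cells Trh was likewise higher in gel, while the interval of Cobl included 1; assay, medium and line differ between these values, and the difference was not tested. Jup itself, the gene the study names, rose in gel by 2.74 (SE 0.31, adjusted p 5.94e-06 by limma). It had 102.7, 90.9 and 96.2 in gel and 9.56, 9.39 and 30.4 on plastic, where replicate 3 stood apart.

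Other genes of netrin signalling, 44 symbols of which Hjv and Hfe2 name 1 gene, were compared by a list of partners and effectors. In bulk 18 were tested, 3 rose and 4 fell, where 18.3% of all tested genes were higher and 18.6% lower, with a median log2 fold change of 0.02 against -0.02 over all tested genes. By edgeR 5 rose and 4 fell, and by DESeq2 3 and 2. Src, a kinase downstream of DCC, rose by 1.78 (SE 0.43, adjusted p 0.00336 by limma), Pitpna, a lipid transfer protein of netrin responses, by 1.17 (SE 0.28), and the GTPase Rac1 by 0.46 (SE 0.12). Among partners of UNC5 receptors, Ppp2r1b, a scaffold of phosphatase 2A, fell by 1.03 (SE 0.17) and Maged1 fell by 0.98 (SE 0.12). Siah1b, a ubiquitin ligase, fell by 0.41. In single cells 22 of the genes reached 20 CPM in either the JupHigh- or the JupLow-labelled cells, and 0 were 2-fold or more higher and 3 lower in the former (2.63% and 8.44% of all such genes). These were Trio, an exchange factor for Rac, at 42.7 against 121.6 CPM, the kinase Fyn at 14.6 against 38.9 and the neogenin ligand Rgmb at 10.2 against 25.4. The median log2 ratio of the list was -0.45, against -0.13 over all genes.

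Of 17 genes for making and degrading TRH, 3 were tested in bulk and 0 called by limma, the peptidases Prep (log2 fold change 0.02), Pgpep1 (-0.49, adjusted p 0.0639) and Mme (-0.43, adjusted p 0.0670). At an unadjusted p under 0.05 limma gave 2 of the 3, edgeR 2 and DESeq2 0, and after adjustment edgeR called 1 lower and DESeq2 0. In single cells 5 reached 20 CPM, and 1, the carboxypeptidase Cpd, was 2-fold or more lower in JupHigh-labelled cells, at 6.26 against 20.2 CPM (8.44% of all such genes were lower).

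Of 46 genes of actin nucleation, 24 were tested in bulk, and 11 rose and 5 fell (18.3% and 18.6% of all tested genes), with a median log2 fold change of 0.34. The largest rises were in Wasf1 (2.04, SE 0.39) and Wasf2 (1.45, SE 0.23), which activate the Arp2/3 complex, and in the formins Diaph2 (1.32, SE 0.42) and Diaph3 (1.14, SE 0.34). Subunits of the Arp2/3 complex fell, Actr2 by 0.66 (SE 0.12), Arpc5 by 0.54 (SE 0.12) and Arpc1b by 0.45 (SE 0.15), while Arpc3 and Arpc2, named after their values were seen, rose by 0.84 (SE 0.22) and by 0.30 (SE 0.12). Calmodulin gene Calm2 fell by 0.46 (SE 0.10). In single cells 29 reached 20 CPM, and 0 were 2-fold or more higher and 1 lower in JupHigh-labelled cells (2.63% and 8.44% of all such genes), Arpc5 at 71.9 against 173.0 CPM.

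The genes most like Ntn1, Trh and Cobl were sought among 8348 genes at 20 CPM or more in a library, by the distance between centred log2(CPM + 1) values over the 5 libraries. Cobl had the closest neighbours, Klf4 (distance 0.29), Nr5a2 (0.45), Esrrb (0.53), Tdh (0.54) and Sp5 (0.60), most of them transcription factors. Klf4 stood at 66.9, 238.2, 50.8, 60.1 and 302.7 CPM in the order used above. For Ntn1 they were Mymx (0.99), Gm13929 (1.10), Zfp42 (1.23), Gli2 (1.37) and Nanog (1.42), and for Trh Ephx2 (1.07), Sall3 (1.13), 4930566F21Rik (1.22), Gm31659 (1.24) and Mymx (1.26). By likeness to Ntn1, Cobl ranked 8 and Trh 41, by likeness to Trh, Ntn1 ranked 19 and Cobl 154, and by likeness to Cobl, Ntn1 ranked 142 and Trh 2980. The 5 points include the JupHigh-labelled and JupLow-labelled values that chose these members, so the ranks are a description. The 5 points share libraries and depth, and the gel values of several of these genes rest on few UMIs.

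**Figure D5:**
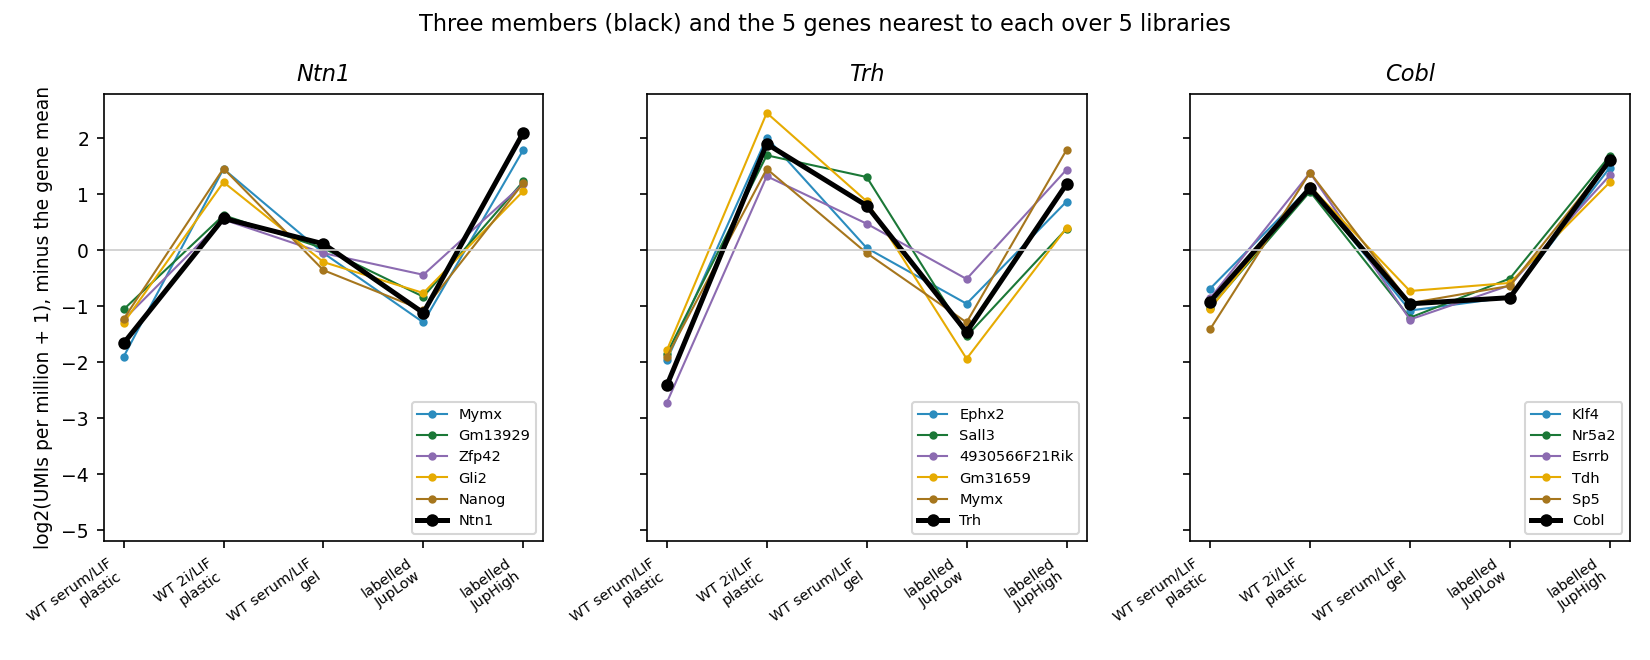
Centred log2(CPM + 1) over the 5 libraries for Ntn1, Trh and Cobl (black) and the 5 genes nearest to each (colours). The neighbours of Cobl run closely along it (distances 0.29 to 0.60), and those of Ntn1 (0.99 to 1.42) and Trh (1.07 to 1.26) less so.

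In bulk, which did not enter the likeness, 11 of these 14 genes were tested, and 6 rose and 2 fell in gel (18.3% and 18.6% of all tested genes). Of the neighbours of Cobl, Klf4 rose by 1.84 (SE 0.19), Sp5 by 1.73 (SE 0.37), Esrrb by 1.55 (SE 0.14) and Nr5a2 by 1.08 (SE 0.28), with adjusted p of 1.72e-06, 0.00156, 4.88e-07 and 0.00556 by limma, and Tdh stood at 0.12 (SE 0.09, adjusted p 0.303). Nanog and Zfp42, near Ntn1, fell by 0.34 (SE 0.09) and by 0.32 (SE 0.10), while Gli2 rose by 1.73 (SE 0.33). Sall3, near Trh, rose by 1.55 (SE 0.34).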

How the data were processed

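The authors deposited 1 bulk table of a signal per gene (gene counts divided by a factor per library, as judged from the values) and 5 tables of whole UMI counts per cell and gene. The submitters' processing notes name FastQC, STAR, featureCounts, DESeq2 and Scanpy and the builds mm10 and GRCm38, with no role or order; the use of strand is not given in the sources used here. The members and lists were chosen with earlier results of these data known.

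All bulk values came out as whole reads within 0.01 reads (100% of values), 637235 to 2583256 a library. Replicates differed by more than sampling noise (chi-square per degree of freedom 1.58 to 2.20). The bulk columns marked both gel and plastic were taken as plastic. Of 12588 genes listed, 7878 passed the edgeR expression filter on recovered reads and were tested with limma 3.58.1 (trend) in R 4.3.3 on log2(value + 0.5), which understates changes of low genes, at an adjusted p of 0.05 (Benjamini-Hochberg). The count tests of edgeR 4.0.16 (TMM) and DESeq2 1.42.0 on these reads were alternatives, calling 3158 and 2188 genes against 2906.

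Barcodes of 1000 UMIs or more were kept as cells, without a doublet caller. Barcodes of poly-G ends, unnamed columns (0.00509% to 0.499% of UMIs) and 1 row cut short in the gel table were left out. Levels, ratios and exact intervals were computed with scipy 1.17.1. The tests and intervals were tested on simulated data. Genes named besides the members followed a rule: those overlapping a member, the 4 largest called changes each way per list in bulk, the 3 largest ratios of 2-fold or more per list in single cells, and the 5 nearest profiles. Arpc2 and Arpc3 lie outside it, as do Jup, the marker genes and the 3 tested TRH genes, which are all of their list that were tested. A gene that this rule names is not reported here. Sequences are from RefSeq, matched by symbol.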

Additional observations from a re-analysis of the deposited data

How the results depend on the processing

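Trh and Cobl stayed higher in gel and past the threshold under all 15 alternatives (log2 fold changes of 1.67 to 1.88 and of 1.006 to 1.30; largest adjusted p 7.71e-06 and 0.000752). Neo1 was called under none; leaving out each library in turn put its log2 fold change between -0.039 (without plastic replicate 2) and 0.53, with -0.020 without gel replicate 3. The number of bulk genes called, 2906, fell to 727 when a change of at least 1 on the log2 scale was required. It ranged from 2361 to 2833 when each library was left out in turn. The replicate numbers do not pair the bulk libraries (correlations of deviations -0.052, 0.016 and 0.024; 1 of 6 libraries was closest to its own number), and the replicate block gave 2988 calls. In single cells the count of members 2-fold or more higher in JupLow-labelled cells than in serum plastic, 1 (Trh), became 0 under 5 of 8 alternatives, where Trh ranged from 1.46-fold to 2.47-fold over all 8; it was 0 with 500 UMIs as the cell minimum, with every barcode, without cells above 3 times the median, with totals over genes without an overlap, and with means over cells. No count of members for the other 5 contrasts moved by over 1.5 times, and no single-cell ratio of 2-fold or more changed direction for Ntn1, Unc5b, Trh and Cobl under these 8 (Dcc had too few UMIs for some). Over them the JupHigh-labelled over JupLow-labelled ratio ranged over 9.40 to 14.2 for Ntn1, 6.02 to 7.20 for Trh, 5.32 to 6.83 for Cobl and 0.156 to 0.367 for Unc5b. For Neo1 it was 0.593 to 1.12, and turned above 1 with 500 UMIs as the cell minimum and with every barcode; the cause was not tested. Every barcode also put Ntn1 in JupLow-labelled cells at 0.992-fold of serum plastic. Depth limits Dcc everywhere, all gel single cells (236195 UMIs), and Ntn1 and Unc5b in bulk (18 reads or fewer).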
